A study of Mus musculus with 34 samples.

Results

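The solute carriers are membrane proteins that move sugars, amino acids, nucleosides, ions, metals and metabolites across the plasma membrane, the membranes of lysosomes, endosomes and the Golgi, and the inner mitochondrial membrane. Their genes carry the prefix Slc, a family number, the letter a and a member number, and the family number roughly follows what is carried. In colonic lamina propria macrophages, cells that take up and digest debris and bacteria below the gut epithelium, 163 solute carrier genes of 43 families were listed in at least 1 of 3 expression tables, out of 9851 genes in all. They were taken by their symbol (Slc, number, a, number), leaving out Slc2a1, Slc16a3, Slc40a1 and Slc11a1. The symbol pattern also took in 4 genes that share the letters but are not carriers, Slc4a1ap, Slc7a6os, Slc9a3r1 and Slc9a3r2.

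The 34 libraries came from macrophages of C57BL/6 mice sorted as CD45+CD11b+CD11cintCD64+Ly6c-CD103-, and fall into 10 groups by title. The first table held 3 libraries titled IL10R_colonic and 3 titled CXhet. The rescue table held 4 libraries titled IL10R_P19, 4 titled IL10R_abx, 5 titled 5C5_IL10R, 3 titled littermate_abx and 2 titled CX. The titles of the IL10R_P19 and IL10R_abx libraries also carry 5C5. The neutrophil table held 3 libraries titled ko_ly6g, 3 titled ko_igg and 4 titled wt. Mice of the first 2 tables were 6 to 7 weeks old and had no treatment, except IL10R_abx and littermate_abx, whose mice had antibiotics in the drinking water. The neutrophil table came from bone marrow chimeras 4 weeks after transfer, and a treatment label gives an anti-ly6g antibody to all 10 libraries, against the titles, which were followed. IL10R is read from the series title as deficiency of the interleukin 10 receptor alpha chain in macrophages, P19 as the p19 subunit of interleukin 23, and ko as the deficient group of the chimeras. The titles of the littermate_abx libraries read IL10R_littermate_abx, and IL10R is not read as deficiency there. The meaning of 5C5, the driver of the deletion, the genotype of the littermates and the host cells left in the chimeras are not stated in the sources used here. The labels do not say that libraries are from separate animals, so p-values measure the spread between libraries.

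Solute carriers have been studied in macrophages mostly for fuel and for the contents of the phagosome. Activated macrophages take up glucose through facilitative carriers of family 2, import cystine for glutathione through the exchanger made of Slc7a11 and the heavy chain Slc3a2, and import arginine for nitric oxide through Slc7a2. Endosomal and lysosomal carriers set luminal pH and return digested peptides, nucleosides and amino acids to the cytosol. Gut epithelial cells use other carriers heavily, such as the zinc importer Slc39a4, the sodium-coupled monocarboxylate carrier Slc5a8 and the chloride and bicarbonate exchanger Slc26a3.

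Recovered reads per library were 1458726 to 2487074 (first table), 747046 to 2775974 (rescue table) and 1028567 to 4525047 (8 libraries of the neutrophil table). Values below are the deposited signal, in which the reads of a gene are divided by a factor of their library, and are comparable between libraries of a table but not between tables or between genes. Il10ra, the targeted gene, was at 9.26, 361 and 65.9 in IL10R_colonic 1 to 3, against 371 to 689 in CXhet. Its level in the library labelled IL10R_colonic 2, just below CXhet, goes against the label. Il23a, the gene of p19, went with the label there. It was at 54.4 in that library, with 45.9 to 58.2 over IL10R_colonic and 1.39 to 10.3 over CXhet. In the rescue table Il10ra was at 1.70 to 31.2 in all libraries titled IL10R and at 138 to 284 in littermate_abx and CX, and in the neutrophil table at 32.2 to 111 in ko_ly6g and ko_igg and at 247 to 827 in wt. All 20 epithelial markers and 10 of 12 macrophage markers were listed in every table, and none of these was at 0 in any library. Summed epithelial markers took 0.550% to 0.958% of the values in IL10R_colonic and 0.847% to 1.90% in CXhet, and 2.01% to 2.83% in ko_ly6g, 2.12% to 2.50% in ko_igg and 1.30% to 3.04% in wt. Of 9 T and NK cell markers, none was listed in the first and rescue tables and 1 in the neutrophil table. Within groups, the tested solute carrier genes had a median coefficient of variation between 10.6% (CX) and 26.1% (wt), and all genes tested one between 10.5% (CX) and 23.5% (IL10R_abx).

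Of the 152, 137 and 139 solute carrier genes listed in the first, the rescue and the neutrophil table, 97, 99 and 95 had a mean above the lower quartile and were tested, with 81 tested in all 3. The mean was taken over all libraries of a table, so a gene could enter the test through its high group alone. The mitochondrial carriers of family 25 were the largest family, with 31 members listed in any of the tables and 21 tested in each. A gene was called higher or lower at a limma adjusted p under 0.05, adjusted over all 6766, 6612 or 6594 genes tested in its table. Changes are given as log2 values, some with their standard error (SE) and others without it. With so few libraries, groups often do not overlap. Of all genes tested, 32.4% did not overlap in IL10R_colonic against CXhet, 37.1% in 5C5_IL10R against CX and 28.6% in ko_igg against wt. The share was 8.64% in IL10R_P19 and 42.1% in IL10R_abx, each against 5C5_IL10R, and 62.1% in littermate_abx against CX. For the tested solute carrier genes the counts, in that order, were 27, 31, 22, 12, 55 and 72. The share of solute carrier genes called ran from 0% to 74.7% over the comparisons, as the plot of the share of genes called by comparison shows.

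**Figure D1:**
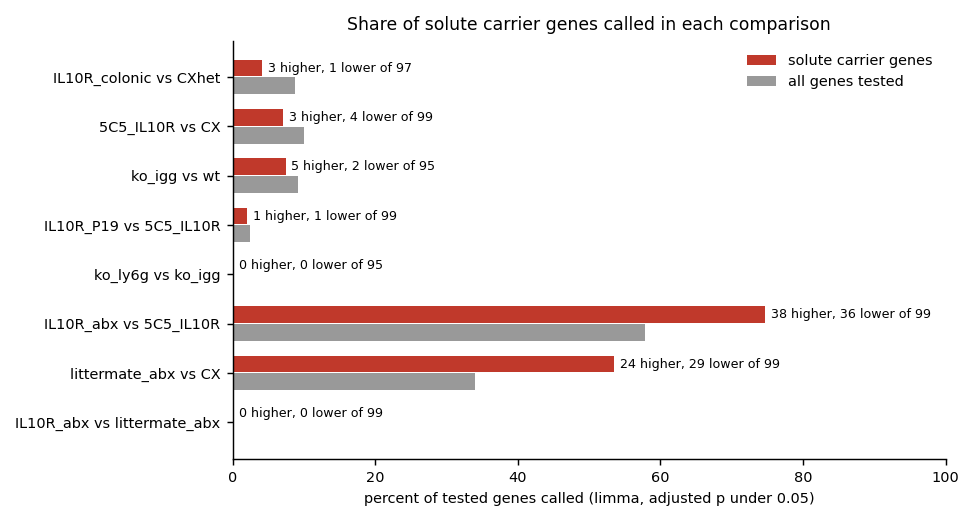
Percent of genes called at a limma adjusted p under 0.05 in each comparison, for the solute carrier genes and for all genes tested in the same table. The share of solute carrier genes lay below that of all genes in IL10R_colonic against CXhet (4.12% and 8.69%) and above it in IL10R_abx against 5C5_IL10R (74.7% and 57.8%).

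In IL10R_colonic against CXhet, 3 of 97 solute carrier genes rose and 1 fell, against 8.69% of all genes called in either direction (4.57% higher, 4.12% lower). The genes that rose were Slc2a6, a facilitative hexose carrier of lysosomal membranes in macrophages, Slc7a11, the cystine and glutamate exchanger, and Slc31a2, a copper carrier of endosomes and lysosomes. The gene that fell was Slc9a9, a sodium and proton exchanger of endosomes. The median change of the 97 genes was -0.08 and that of all genes 0.00. Another 22 of the 97 had an unadjusted p under 0.05 without passing the adjusted threshold, and edgeR on the recovered reads called 3 higher and 3 lower.

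The sequences upstream of 3 of these genes are shown because these genes had the largest changes of the comparison. Each run is the 250 bases before the annotated start, 5′ to 3′ on the gene's strand, from RefSeq on GRCm38.p6, a later build than the mm9 of the submitters' processing notes. Slc2a6 lies on the minus strand at chr2:27027999-27028248, Slc7a11 on the minus strand at chr3:50443614-50443863 and Slc9a9 on the plus strand at chr9:94669642-94669891. Capitals mark matches, on either strand, to an NF-kB pattern (GGG, then any 5 bases, then CC) or a C/EBP-ATF pattern (TGATGNAA).
Slc2a6: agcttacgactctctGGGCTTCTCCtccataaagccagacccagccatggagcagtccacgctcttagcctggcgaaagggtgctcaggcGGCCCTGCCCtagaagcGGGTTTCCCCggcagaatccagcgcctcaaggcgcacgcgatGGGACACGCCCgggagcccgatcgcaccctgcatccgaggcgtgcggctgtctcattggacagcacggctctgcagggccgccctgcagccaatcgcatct
Slc7a11: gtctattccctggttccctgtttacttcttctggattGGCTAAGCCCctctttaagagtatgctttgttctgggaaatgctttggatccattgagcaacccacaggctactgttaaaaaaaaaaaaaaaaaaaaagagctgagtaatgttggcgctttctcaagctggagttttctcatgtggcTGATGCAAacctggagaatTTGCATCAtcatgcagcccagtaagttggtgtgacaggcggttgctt
Slc9a9: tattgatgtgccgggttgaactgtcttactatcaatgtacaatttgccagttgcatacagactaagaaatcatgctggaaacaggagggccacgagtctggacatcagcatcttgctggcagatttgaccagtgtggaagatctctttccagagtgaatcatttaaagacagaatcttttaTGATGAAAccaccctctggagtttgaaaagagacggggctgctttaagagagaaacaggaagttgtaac
The NF-kB pattern matched the Slc2a6 run 6 times counting both strands, with 1 stretch that fits the pattern on both strands counted on each and 1 overlapping pair, and the Slc7a11 run once, at 213 to 204 bases upstream. It was in 45.8% of 32851 promoter stretches of the same length. The C/EBP-ATF pattern matched the Slc7a11 run at 66 to 59 and, on the opposite strand, at 47 to 40 bases upstream, and the Slc9a9 run at 69 to 62. It was in 3.45% of all stretches. An antioxidant response pattern (TGACNNNGC, in 10.2% of all stretches) and a PU.1 core (GAGGAA, in 23.3%) had no match in these 3 runs. Of the 163 solute carrier genes, 123 had a promoter in the table, and 86 of these (69.9%) held the NF-kB pattern and 4 (3.25%) the C/EBP-ATF pattern. The antioxidant response pattern was in 25 (20.3%) and the PU.1 core in 31 (25.2%). These shares count a gene once if any of its stretches matched, while those of all promoters count each stretch, so they are not like for like. A match describes these letters and is no evidence of binding.

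Slc2a6 stood at 114, 232 and 75.3 in IL10R_colonic and at 13.7, 13.05 and 9.73 in CXhet, a change of 3.25 (SE 0.46, limma adjusted p = 0.00471). Every IL10R_colonic library lay above every CXhet library, and the call held under all 11 alternatives. These included a fit without the filter. Slc2a6 and Slc7a11 lay below the filter cut, a mean of 53.2, in every CXhet library, so both entered the test through IL10R_colonic. The values rest on 64 to 179 reads in IL10R_colonic and 7 to 14 reads in CXhet. Slc7a11 stood at 80.7, 145 and 97.7 in IL10R_colonic and at 17.1, 6.52 and 26.4 in CXhet, a change of 2.74 (SE 0.51, limma adjusted p = 0.0138). The groups did not overlap, and the call was lost without IL10R_colonic 3 (adjusted p 0.0651). Slc3a2, the heavy chain that holds Slc7a11 at the cell surface, stood at 1509, 1815 and 1053 in IL10R_colonic and at 1342, 1228 and 969 in CXhet, so its groups overlapped. Slc31a2 stood at 216, 258 and 217 in IL10R_colonic and at 166, 105.3 and 101 in CXhet, a change of 0.91 (SE 0.23, limma adjusted p = 0.0408). The groups did not overlap, and the call was lost under 5 of 11 alternatives, all of them leaving out 1 library.

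Slc9a9 stood at 72.7, 18.1 and 47.1 in IL10R_colonic and at 241, 319.7 and 175 in CXhet, a change of -2.54 (SE 0.45, limma adjusted p = 0.0113). The lowest value was in the library labelled IL10R_colonic 2, which also had the highest Slc2a6, Slc7a11 and Slc31a2, and without that library Slc9a9 stayed called. The call was lost without CXhet 2 (adjusted p 0.0673). The Slc9a9 values of 18.1 and 47.1 in IL10R_colonic lay below the filter cut of 53.2, and the gene entered the test mainly through CXhet.

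Several other carriers had lower values in IL10R_colonic without passing the threshold. Slc5a8, the sodium-coupled monocarboxylate carrier, stood at 35.7, 5.18 and 29.4 in IL10R_colonic and at 88.9, 86.7 and 93.1 in CXhet (log2 -2.22, limma adjusted p = 0.0605). Slc26a2, a sulphate carrier, stood at 138, 31.1 and 134 in IL10R_colonic and at 282, 279 and 403 in CXhet (log2 -1.91, limma adjusted p = 0.0529). In both genes the groups did not overlap and the library labelled IL10R_colonic 2 was lowest. Slc39a5 (-1.81), Slc6a14 (-1.44), Slc13a2 (-1.28), Slc35a3 (-1.09) and the monocarboxylate carrier Slc16a1 (-1.01) also had lower means in IL10R_colonic, with adjusted p from 0.0536 to 0.309. Of 19 epithelial markers tested, 3 fell in IL10R_colonic and none rose, with a median change of -0.47, and of 10 macrophage markers 1 rose, with a median of -0.02. Of 10 neutrophil markers 5 were listed, with a sum of 0.0197% to 0.0278% of the values in IL10R_colonic and 0.00457% to 0.00686% in CXhet, where Retnlg was at 0 in every library and S100a8 in 2 of 3, and 2 of 3 tested rose (S100a9 and Csf3r). The part of these markers in the carrier values was not tested. Positive values in the remaining classes were 0.83 for the citrate carrier Slc25a1 and 0.83 for the iron carrier Slc25a28, 0.74 for the peptide carrier Slc15a3 and 0.44 for the haem carrier Slc48a1. The phosphate and vesicular anion class gave -0.89 for Slc17a9 and -0.63 for Slc20a1, and Slc35a1 gave -0.72.

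In bulk libraries, fewer cells of a type and less RNA per cell cannot be told apart. In 5C5_IL10R against CX, 3 of 99 solute carrier genes rose and 4 fell (7.07% called), against 9.91% of all genes (3.87% higher, 6.03% lower). The genes that rose were Slc39a4, a zinc importer, Slc44a4, a choline carrier-like protein, and Slc6a8, the creatine carrier. The genes that fell were Slc9a9, the sodium and calcium exchanger Slc8a1, the lysosomal arginine sensor Slc38a9 and Slc15a3, a histidine and peptide carrier of endosomes and lysosomes. The median change was 0.03 in these genes and 0.01 in all genes, 26 of the 99 had an unadjusted p under 0.05, and edgeR called 3 higher and 10 lower. CX held 2 libraries, and without CX 1 no solute carrier gene was called, and without CX 3 1 rose and 1 fell.

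Slc39a4 stood at 445, 398, 455, 478 and 345 in 5C5_IL10R and at 167 and 189 in CX, a change of 1.24 (SE 0.28, limma adjusted p = 0.00966). Slc44a4 stood at 501, 581, 476, 495.9 and 443 in 5C5_IL10R and at 204 and 268 in CX, a change of 1.09 (SE 0.23, limma adjusted p = 0.00692). Slc6a8 stood at 445, 642, 582, 569 and 419.9 in 5C5_IL10R and at 243 and 343 in CX, a change of 0.86 (SE 0.23, limma adjusted p = 0.0240). For each of the 3 genes every 5C5_IL10R library lay above both CX libraries. Summed epithelial markers took 2.02% to 3.13% of the values in 5C5_IL10R and 2.20% to 2.51% in CX, and of the 20 markers 1 rose.

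Slc9a9 stood at 20.8, 22.8, 31.5, 29.6 and 41.8 in 5C5_IL10R and at 105.6 and 91.1 in CX, a change of -1.75 (SE 0.30, limma adjusted p = 0.00239). Slc8a1 stood at 39.01, 22.8, 37.7, 27.3 and 47.5 in 5C5_IL10R and at 76.6 and 71.2 in CX, a change of -1.11 (SE 0.25, limma adjusted p = 0.00987). Slc38a9 stood at 53.3, 29.04, 34.97, 36.4 and 57.9 in 5C5_IL10R and at 77.7 and 76.9 in CX, a change of -0.90 (SE 0.28, limma adjusted p = 0.0444). Slc15a3 was at 134 to 183 in 5C5_IL10R and at 251 and 269.9 in CX, a change of -0.76 (SE 0.21, limma adjusted p = 0.0293). All 4 genes were lower in every 5C5_IL10R library than in either CX library. Most 5C5_IL10R values of Slc9a9 and Slc8a1 lay below the filter cut of 40.4, so these genes entered the test through groups with higher values. In this comparison 31 of the 99 solute carrier genes and 37.1% of all genes had groups that did not overlap. Summed macrophage markers moved the same way, with 0.744% to 1.02% of the values in 5C5_IL10R and 1.67% to 1.69% in CX, and 8 of 10 fell with a median change of -1.04. Both dendritic cell markers tested fell as well, the sum of 3 listed of 7 taking 0.00774% to 0.0107% of the values in 5C5_IL10R and 0.0140% to 0.0150% in CX, and 2 of 3 B and plasma cell markers tested fell. The part of these markers in the changes was not tested. Slc7a8, the light chain of a neutral amino acid exchanger, gave -0.95 (limma adjusted p = 0.0556), and the carnitine carrier Slc25a20 gave 0.74 (limma adjusted p = 0.0627).

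In ko_igg against wt, 5 of 95 solute carrier genes rose and 2 fell (7.37% called), against 9.19% of all genes (5.73% higher, 3.46% lower). Of those that rose, 3 were mitochondrial carriers: Slc25a1 for citrate, Slc25a22 for glutamate and Slc25a37, mitoferrin-1, for iron. The others were Slc39a4 and the sodium and mannose carrier Slc5a9. The genes that fell were Slc37a2, a sugar phosphate exchanger found in macrophages, and Slc26a2. The median change was 0.05 in these genes and 0.06 in all genes, 21 of the 95 had an unadjusted p under 0.05, and edgeR, on the 8 libraries with recovered reads, called none.

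Slc5a9 stood at 96.8, 116 and 182 in ko_igg and at 23.8, 49.5, 34.3 and 40.9 in wt, a change of 1.80 (SE 0.31, limma adjusted p = 0.00595). Slc39a4 stood at 1210.3, 1200.3 and 1766 in ko_igg and at 235, 529.8, 637 and 598 in wt, a change of 1.55 (SE 0.33, limma adjusted p = 0.0168). Slc25a1 stood at 624.9, 621 and 764 in ko_igg and at 304, 357, 399.7 and 240.1 in wt, a change of 1.06 (SE 0.21, limma adjusted p = 0.0119). Slc39a4 and the other genes that rose had no ko_igg library within the range of wt. The Slc39a4 call was lost without any 1 ko_igg library. Slc25a37 was at 110.4 to 123 in ko_igg and at 48.2 to 95.2 in wt (log2 0.91, SE 0.23, limma adjusted p = 0.0359). Slc25a22 was at 142 to 198 in ko_igg and at 67.9 to 110.1 in wt (log2 0.90, SE 0.20, limma adjusted p = 0.0194). The Slc25a37 call was lost under 8 of 12 alternatives, and those of Slc25a22 and Slc26a2 without ko_igg 14 or ko_igg 16.

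Slc37a2 stood at 90.3, 69.0 and 160.5 in ko_igg and at 458, 257, 366 and 372 in wt, a change of -1.82 (SE 0.30, limma adjusted p = 0.00494). Slc26a2 stood at 113, 99.5 and 179.9 in ko_igg and at 196, 367, 454 and 408 in wt, a change of -1.42 (SE 0.29, limma adjusted p = 0.0142). Both had groups that did not overlap. The library wt 1 stood apart in its markers, with summed macrophage markers at 2.82% of the values and summed epithelial markers at 1.30%, each at the end of the wt range. Without wt 1, 9 solute carrier genes rose and 5 fell, with Slc25a4, Slc25a33, Slc31a2 and Slc45a3 added among the higher and Slc12a8, Slc17a5 and Slc5a1 among the lower. Summed macrophage markers took 0.764% to 1.08% of the values in ko_igg and 0.980% to 2.82% in wt, and 1 of 10 fell (Cx3cr1). Other sums did not overlap: 7 stromal and endothelial markers took 0.115% to 0.135% of the values in ko_igg and 0.155% to 0.201% in wt, 3 dendritic cell markers 0.00387% to 0.00774% in ko_igg and 0.00909% to 0.0212% in wt, 6 neutrophil markers 0.00960% to 0.0404% in ko_igg and 0.00464% to 0.00914% in wt, and the 1 listed T and NK cell marker 0.00252% to 0.00332% in ko_igg and 0.000464% to 0.00108% in wt. Of those tested, 1 of 2 dendritic markers fell, 1 of 3 neutrophil markers rose and none of 6 stromal markers was called. The part of these markers in the carrier changes was not tested.

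The 3 comparisons of deficient with control libraries share no library. In each of these 3 comparisons Slc9a9 was lower in the deficient libraries, which in the rescue table are those of 5C5_IL10R. In the neutrophil table it was below the quartile and not tested in the fit described above, at 16.1, 44.2 and 32.04 in ko_ly6g, at 30.6, 44.8 and 25.05 in ko_igg and at 149, 77.9, 112 and 97.5 in wt. No ko_igg library reached the lowest wt library, and a fit of all genes listed, without the quartile filter, gave -1.68 (SE 0.36, limma adjusted p = 0.0154, with 9.29% of all genes called in that fit). Slc39a4 was called in 2 of the 3 comparisons, while the first table had 397, 304 and 435 in IL10R_colonic and 162, 223 and 321 in CXhet, which overlap (log2 0.72). Slc2a6, in the fit without the filter, gave 2.41 (SE 0.44, limma adjusted p = 0.00729) in ko_igg against wt, with 57.2, 71.0 and 61.5 in ko_igg and 26.8, 6.42, 9.79 and 8.39 in wt. In the rescue table Slc2a6 was low and spread widely, at 53.3, 19.7, 15.1, 7.59 and 4.83 in 5C5_IL10R and at 5.18 and 9.11 in CX, and was not called in the fit without the filter. Slc7a11 and Slc7a2 were listed in the first table alone, so they could not be looked at in the rescue and neutrophil tables.

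**Figure D2:**
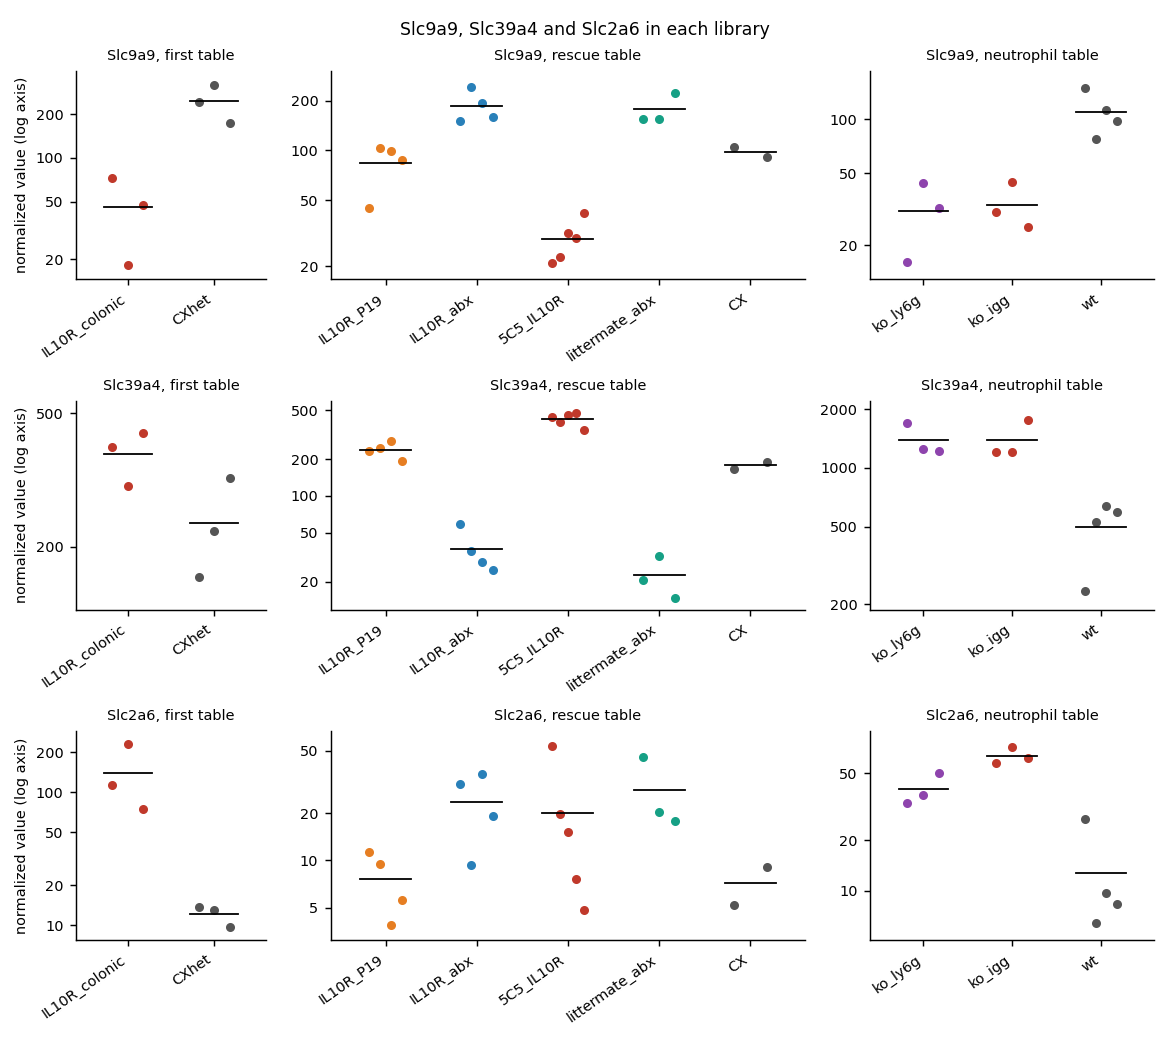
Deposited signal (log axis) of Slc9a9, Slc39a4 and Slc2a6 in each library, by group and table, with bars at group means; the 3 tables were normalized separately. Slc9a9 lay at 18.1 to 72.7 in IL10R_colonic and 175 to 319.7 in CXhet, and at 20.8 to 41.8 in 5C5_IL10R and 91.1 and 105.6 in CX.

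Of the 81 genes tested in all 3 tables, 16 had a positive and 16 a negative change in all 3 comparisons, counting signs only. Signs were not counted over all genes, so the sign counts here have no background share beside them. In family 25, the changes were positive for 13, 15 and 17 of 21 tested members in the first, the rescue and the neutrophil table. The medians were 0.14, 0.11 and 0.12, and those of all genes tested 0.00, 0.01 and 0.06. Calls were made in the neutrophil table (3 higher) but not in the first and rescue tables. Slc25a1 had changes of 0.83, 0.19 and 1.06, Slc25a22 of 0.47, 0.63 and 0.90, and Slc25a37 of 0.80, 0.11 and 0.91 in that order of tables. Whether a change differs between tables was not tested, since the tables were normalized separately.

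In IL10R_P19 against 5C5_IL10R, Slc9a9 rose and Slc6a14, a carrier of neutral and cationic amino acids, fell, 2 of 99 genes (2.02%), against 2.43% of all genes (1.92% higher, 0.514% lower). Slc9a9 stood at 45.2, 104, 99.6 and 87.4 in IL10R_P19 and at 20.8, 22.8, 31.5, 29.6 and 41.8 in 5C5_IL10R, a change of 1.46 (SE 0.24, limma adjusted p = 0.00668). Every IL10R_P19 library was above every 5C5_IL10R library, with IL10R_P19_100 the lowest of its group, and the call held under all 14 alternatives. Slc6a14 stood at 217, 285, 271 and 256 in IL10R_P19 and at 324, 452, 487, 428 and 342 in 5C5_IL10R, a change of -0.65 (SE 0.17, limma adjusted p = 0.0441). The groups did not overlap, and the call was lost under 7 of 14 alternatives. Slc39a4 stood at 231, 247, 280.0 and 192 in IL10R_P19, below all 5C5_IL10R libraries, with -0.84 (limma adjusted p = 0.0515). The anion carrier Slc26a11 gave 0.92 (limma adjusted p = 0.0617), the phosphate carrier Slc20a1 0.75, Slc7a8 0.67 and Slc44a4 -0.57, none of them called. In total 23 of the 99 genes had an unadjusted p under 0.05, and edgeR called 2 higher and 2 lower. Summed macrophage markers took 0.945% to 1.43% of the values in IL10R_P19 and 0.744% to 1.02% in 5C5_IL10R, with 5 of 10 called higher, and no epithelial marker was called. Dendritic cell markers took 0.0120% to 0.0146% in IL10R_P19 and 0.00774% to 0.0107% in 5C5_IL10R, with both tested higher. The part of these markers in the Slc9a9 change was not tested.

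No solute carrier gene was called in ko_ly6g against ko_igg, where 0% of all genes were called. At an unadjusted p under 0.05 there were 2, edgeR called none, and the smallest limma adjusted p was 0.9998. Slc5a9 stood at 189, 274 and 154 in ko_ly6g and at 96.8, 116 and 182 in ko_igg, and Slc39a4 at 1692, 1258 and 1217 in ko_ly6g and at 1210.3, 1200.3 and 1766 in ko_igg, so that both genes overlapped between these groups. The largest changes were 1.14 for the dicarboxylate carrier Slc13a2 and 1.03 for the glutamate carrier Slc1a1 (SE 0.46 and 0.54).

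In IL10R_abx against 5C5_IL10R, 38 of 99 solute carrier genes rose and 36 fell (74.7% called), against 57.8% of all genes (30.6% higher, 27.3% lower). Of the 99, 46 changed by more than 2-fold, and the median absolute change was 0.89, against 0.53 over all genes. The 12 with the smallest adjusted p on the higher side were Slc3a2, Slc9a9, Slc16a6, Slc7a8, Slc6a6, Slc11a2, Slc26a11, Slc15a3, Slc29a1, Slc45a4, Slc15a4 and Slc28a2. Those on the lower side were Slc39a4, Slc6a14, Slc44a4, Slc44a3, Slc35a1, Slc22a18, Slc37a1, Slc5a8, Slc6a8, Slc13a2, Slc5a1 and Slc35a2. The signed median was -0.09 for these genes and 0.03 for all, and edgeR called 36 higher and 35 lower.

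All 20 epithelial markers fell and all 10 macrophage markers rose in the same comparison, with median changes of -2.07 and 1.68. Summed epithelial markers took 0.386% to 0.604% of the values in IL10R_abx and 2.02% to 3.13% in 5C5_IL10R, and summed macrophage markers 2.01% to 2.59% in IL10R_abx and 0.744% to 1.02% in 5C5_IL10R. Stromal and endothelial markers took 0.359% to 0.528% of the values in IL10R_abx and 0.143% to 0.243% in 5C5_IL10R, although 4 of 6 tested fell and 1 rose, and dendritic cell markers took 0.0256% to 0.0310% in IL10R_abx and 0.00774% to 0.0107% in 5C5_IL10R, with both tested higher. None of the epithelial markers was at 0 in a library of either group. The part of all these markers in the carrier changes was not tested.

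**Figure D3:**
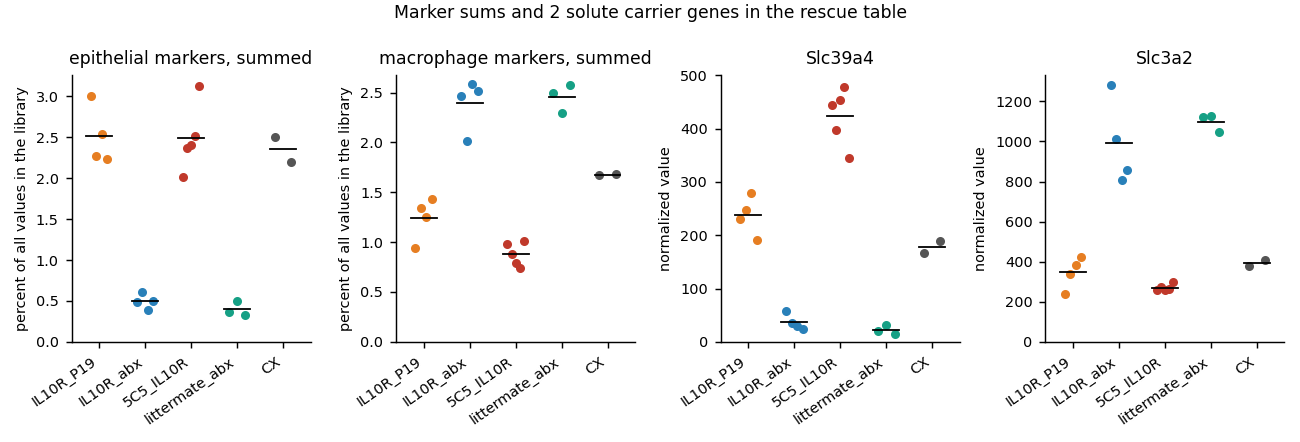
Summed epithelial and macrophage markers (percent of all values) and the signal of Slc39a4 and Slc3a2 in each library of the rescue table, with bars at group means. In IL10R_abx and littermate_abx the epithelial sum was 0.330% to 0.604% and Slc39a4 14.8 to 58.8, in IL10R_P19, 5C5_IL10R and CX 2.02% to 3.13% and 167 to 478.

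Of 16 amino acid carriers tested, 9 rose and 4 fell (median 0.50), with 57.8% of all genes called in this comparison. Slc3a2, the heavy chain of the heterodimeric exchangers, stood at 1282, 1012, 809 and 858 in IL10R_abx and at 257, 275, 259.9, 264 and 298 in 5C5_IL10R, a change of 1.85 (SE 0.16, limma adjusted p = 1.88e-08). Slc7a8, one of its light chains, stood at 104, 115, 114 and 68.2 in IL10R_abx and at 9.10, 21.8, 20.6, 22.8 and 26.5 in 5C5_IL10R, a change of 2.31 (SE 0.25, limma adjusted p = 2.42e-07). Neither gene's groups overlapped. The taurine carrier Slc6a6 rose by 1.28 (SE 0.15), with 653 to 700.2 in IL10R_abx and 239.6 to 337 in 5C5_IL10R. In family 38, neutral amino acid carriers of the cell surface and the lysosome, 5 of 6 rose and none fell, with a median of 0.77. The largest of these was the lysosomal glutamine carrier Slc38a7 with 1.34 (SE 0.21), and Slc38a9 rose by 1.00 (SE 0.22). The amino acid carriers that fell were Slc6a14 (-2.16), the glutamate carrier Slc1a1 (-1.93), the creatine carrier Slc6a8 (-1.71) and the glutamine carrier Slc1a5 (-0.78).

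Of 9 carriers of peptides, nucleosides, vitamins, choline and haem, 7 rose and 2 fell (median 0.98), with 57.8% of all genes called. Both tested members of family 15, the endosomal and lysosomal histidine and peptide carriers, rose, Slc15a3 by 1.32 (SE 0.17) and Slc15a4 by 1.22 (SE 0.17). Both tested equilibrative nucleoside carriers rose, Slc29a1 by 1.39 (SE 0.19) and the lysosomal Slc29a3 by 0.98 (SE 0.20). Slc28a2, a sodium-coupled purine nucleoside carrier, stood at 87.1, 167, 76.3 and 74.0 in IL10R_abx and at 32.5, 31.1, 17.1, 10.6 and 18.5 in 5C5_IL10R, a change of 2.17 (SE 0.32, limma adjusted p = 9.04e-06). The groups did not overlap. The 2 that fell were both of family 44, Slc44a4 (-2.34) and Slc44a3 (-2.04, SE 0.17). Slc44a4 stood at 118, 147, 61.04 and 86.5 in IL10R_abx, against 443 to 581 in 5C5_IL10R.

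Of 15 ion carriers of protons, bicarbonate, chloride and calcium, 6 rose and 7 fell (median -0.36), with 57.8% of all genes called. Slc9a3r1, a scaffold protein that the symbol pattern took in, fell as well (-0.49). Slc9a9 had the largest rise of all 99 genes, with 150.2, 243, 193 and 159 in IL10R_abx and 20.8 to 41.8 in 5C5_IL10R, a change of 2.64 (SE 0.24, limma adjusted p = 3.35e-08). Slc26a11 rose by 1.97 (SE 0.26) and Slc8a1 by 1.09 (SE 0.20). On the lower side stood Slc12a8 (-2.40), the sodium, potassium and chloride cotransporter Slc12a2 (-1.94), Slc26a3 (-1.89) and all 3 tested bicarbonate carriers of family 4, Slc4a4 (-1.74), Slc4a7 (-0.99) and Slc4a2 (-0.68). Slc26a3 stood at 52.2, 33.9, 25.4 and 54.8 in IL10R_abx and at 118, 166, 222, 123 and 140.0 in 5C5_IL10R, with no overlap.

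**Figure D4:**
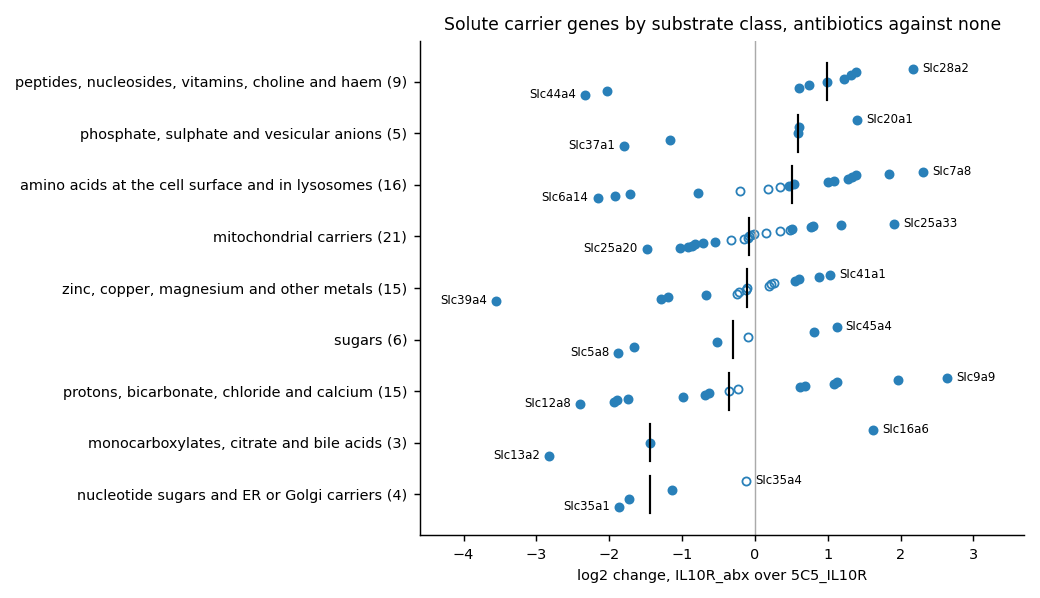
Log2 change in IL10R_abx over 5C5_IL10R of each tested carrier, by substrate class with class size in parentheses (classes of 3 or more); filled points were called and bars mark class medians. Class medians ran from -1.44 (nucleotide sugars) to 0.98 (peptides, nucleosides, vitamins, choline and haem), and positive and negative values stood in every class shown except the nucleotide sugar carriers.

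Of 15 metal carriers, 4 rose and 4 fell (median -0.11), no larger a share than that of all genes called (57.8%). Slc39a4 had the largest fall of all 99 genes, with 58.8, 35.7, 28.8 and 24.98 in IL10R_abx and 445, 398, 455, 478 and 345 in 5C5_IL10R, a change of -3.55 (SE 0.22, limma adjusted p = 7.57e-10). In the zinc importer family 39, 4 of 8 fell, Slc39a4, Slc39a5 (-1.29), Slc39a11 (-1.19) and Slc39a9 (-0.68), and Slc39a13 rose (0.55). The metal carriers that rose were the magnesium carrier Slc41a1 (1.04), the copper carrier Slc31a2 (0.89), the zinc exporter Slc30a1 (0.60) and Slc39a13. The iron importer Slc11a2, which stands outside these classes, rose by 1.44 (SE 0.19), with 98.97 to 175 in IL10R_abx and 39.01 to 61.2 in 5C5_IL10R.

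Of 21 mitochondrial carriers, 5 rose and 7 fell (median -0.09), no larger a share than that of all genes called (57.8%). The pyrimidine nucleotide carrier Slc25a33 rose by 1.92 (SE 0.29), with 189, 179, 66.1 and 89.4 in IL10R_abx and 27.3 to 37.8 in 5C5_IL10R. The largest fall was that of the carnitine carrier Slc25a20 (-1.48, SE 0.20). The adenine nucleotide carriers went in opposite directions, Slc25a4 by 0.77 (SE 0.17) and Slc25a5 by -0.86 (SE 0.16). Of 4 nucleotide sugar and Golgi carriers, 3 fell, Slc35a1 for CMP-sialic acid (-1.87), Slc35a2 for UDP-galactose (-1.73) and Slc35a3 (-1.14). Of 6 genes in the sugar families, Slc45a4 (1.12) and Slc2a8 (0.81) rose and Slc5a8 (-1.88), the glucose carrier Slc5a1 (-1.66) and Slc50a1 (-0.52) fell. Of 5 phosphate, sulphate and vesicular anion carriers, 3 rose, the largest being Slc20a1 (1.41, SE 0.23), and Slc37a1 (-1.79) and Slc17a9 (-1.16) fell. The monocarboxylate carrier Slc16a6 rose by 1.62 (SE 0.15), and Slc13a2 (-2.83, SE 0.29), Slc16a1 (-1.44) and the organic cation carrier-like Slc22a18 (-1.63) fell.

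The antibiotic comparison in control mice, littermate_abx against CX, was added after the data had been seen. Here 24 of 99 solute carrier genes rose and 29 fell (53.5% called), against 34% of all genes (16.5% higher, 17.5% lower), and edgeR called 23 higher and 30 lower. Slc39a4 stood at 20.7, 32.5 and 14.8 in littermate_abx and at 167 and 189 in CX, a change of -2.99 (SE 0.30, limma adjusted p = 2.73e-06). Slc3a2 stood at 1122, 1126 and 1046 in littermate_abx and at 379 and 407 in CX, a change of 1.48 (SE 0.22, limma adjusted p = 5.06e-05). Both genes had groups far apart, and the epithelial markers fell in the same libraries (20 of 20, median -2.21) while 6 of 10 macrophage markers rose. Stromal and endothelial markers took 0.304% to 0.475% of the values in littermate_abx and 0.197% to 0.204% in CX (1 of 6 tested rose and 2 fell), and dendritic cell markers 0.0217% to 0.0275% in littermate_abx and 0.0140% to 0.0150% in CX (1 of 2 tested rose). The part of these markers was not tested here either. The littermates' genotype is not stated, so antibiotics and any difference in genotype between littermate_abx and CX cannot be told apart. Il10ra was at 138 to 191 in littermate_abx and at 248 to 284 in CX. The count of genes that rose was 8 without CX 1 and 12 without CX 3.

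The antibiotic comparisons of deficient and control mice share no library. Of the 74 genes called in IL10R_abx against 5C5_IL10R and the 53 called in littermate_abx against CX, 52 were called in both in the same direction, 70.3% of the first list and 98.1% of the second, and none in opposite directions. Over all genes, 2056 were shared in the same direction, 53.8% of 3823 and 91.4% of 2250. Of the 52, 23 rose and 29 fell, and 85 of all 99 had the same sign, a count not made over all genes. The 22 called in the deficient mice alone included Slc9a9, Slc8a1, Slc31a2, Slc38a1 and Slc38a9, named after their values were seen. Slc25a28 was called in littermate_abx against CX alone. Slc9a9 stood at 155, 154 and 223 in littermate_abx and at 105.6 and 91.1 in CX, a change of 0.83 that was not called (limma adjusted p = 0.0549). Its groups did not overlap, as was so for 62.1% of all genes in this comparison.

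**Figure D5:**
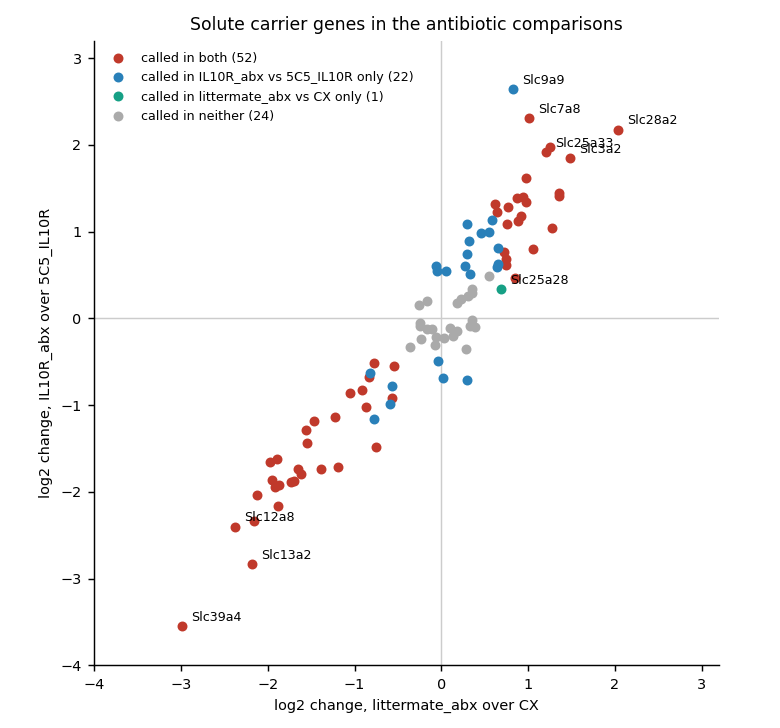
Log2 change of 99 solute carrier genes with antibiotics, in littermate_abx over CX (x axis) and in IL10R_abx over 5C5_IL10R (y axis), coloured by where each was called. Called in both were 52 genes, in IL10R_abx over 5C5_IL10R alone 22, in littermate_abx over CX alone 1 (Slc25a28) and in neither 24.

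With antibiotics in both groups, IL10R_abx against littermate_abx, no solute carrier gene was called, where 0.0302% of all genes were (0.0151% higher, 0.0151% lower). At an unadjusted p under 0.05 there were 10, edgeR called none, and the smallest limma adjusted p was 0.164. The values with that adjusted p were 0.94 (SE 0.22) for Slc5a1, 0.91 (SE 0.21) for Slc44a4 and 0.58 (SE 0.14) for Slc25a11. Without IL10R_abx_497, 4 genes rose (Slc25a11, Slc35a1, Slc44a4 and Slc5a1) and 2 fell (Slc4a2 and Slc25a28), and without IL10R_abx_495, Slc5a1 and Slc44a4 rose. Slc9a9 stood at 150.2 to 243 in IL10R_abx and at 154 to 223 in littermate_abx, and the groups overlapped.

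Whether the difference between deficient and control libraries itself differed with antibiotics was tested as (IL10R_abx - littermate_abx) - (5C5_IL10R - CX). No solute carrier gene was called, with 0.106% of all genes called, and 8 had an unadjusted p under 0.05. Slc9a9 had the smallest adjusted p, with a difference of 1.82 (SE 0.40, limma adjusted p = 0.0688), and edgeR called it (1.77, edgeR adjusted p = 0.0459). Without 5C5_IL10R 68 the limma fit called it too (1.95, limma adjusted p = 0.0215). The next largest differences were 1.29 (SE 0.42) for Slc7a8 and -1.02 (SE 0.41) for Slc25a22.

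Members below the quartile of mean level, 55 in the first table, 38 in the rescue table and 44 in the neutrophil table, were looked at in a fit of all genes listed, without the quartile filter. How genes came to be listed is not given in the sources used here, so a gene could be listed through its high group alone. In IL10R_colonic against CXhet 1 of the 55 rose and 4 fell, with 8.76% of all genes called. The gene that rose was Slc7a2, a cationic amino acid carrier that imports arginine, with 58.2, 184 and 36.5 in IL10R_colonic and 3.42, 2.80 and 4.17 in CXhet, which are 31 to 142 and 2 to 3 reads. The fitted change was 3.98 (SE 0.59, limma adjusted p = 0.00439) and, at so few reads in CXhet, depends on the pseudocount. Those that fell were Slc4a4 (-2.26), Slc1a1 (-1.59), Slc5a6 (-1.20) and the folate and haem carrier Slc46a1 (-0.998). In 5C5_IL10R against CX 3 of 38 rose (Slc5a9 2.16, Slc45a3 1.49 and the riboflavin carrier Slc52a3 1.11) and the urea carrier Slc14a1 fell (-1.66), with 7.5% of all genes called. Slc5a9 stood at 113, 83.0, 85.0, 46.3 and 25.7 in 5C5_IL10R and at 13.5 and 13.1 in CX, without overlap. In IL10R_abx against 5C5_IL10R 7 of 38 rose and 18 fell (55.6% of all genes called), and in littermate_abx against CX 3 rose and 10 fell (31%). In IL10R_P19 against 5C5_IL10R none of the 38 was called (1.81%). In ko_igg against wt 3 of 44 rose (Slc7a9 3.27, Slc2a6 2.41 and Slc28a3 1.43) and 4 fell, with 9.29% of all genes called. Those that fell were Slc30a10 (-5.27), Slc4a4 (-1.81), Slc9a9 (-1.68) and Slc9a3r2 (-1.38). Recovered reads of Slc7a9 were 0, 3 and 1 in wt, and those of Slc30a10 0 and 6 in ko_igg, so both changes depend on the pseudocount. None of the 44 was called in ko_ly6g against ko_igg.

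Of 6 enzymes of arginine metabolism, 4 rose in IL10R_colonic against CXhet and none fell, with Nos2, the inducible nitric oxide synthase, at 6.70 (SE 0.47, limma adjusted p = 0.000354), Arg2 at 4.19 and Ass1, which makes arginine precursors from citrulline, at 3.54. CXhet held 3 to 5 reads of Nos2 and 2 to 7 of Arg2, and CX held 0 and 1 read of Nos2, so these fitted changes depend on the pseudocount. In 5C5_IL10R against CX 2 of 4 rose (Nos2 6.47, Ass1 1.22), in ko_igg against wt 2 of 5 (Nos2 5.50, Ass1 1.60), and in IL10R_P19 against 5C5_IL10R 2 of 4 fell (Nos2 -4.09, Ass1 -1.03). Genes of the ATF4 response to amino acid shortage, which include tRNA ligases, gave 2 higher and 1 lower of 15 in IL10R_colonic against CXhet (Wars 1.46, Mthfd2 1.24, Ddit3 -1.42), 2 higher and 1 lower of 14 in 5C5_IL10R against CX and 7 higher of 15 in ko_igg against wt (Asns 2.22, Wars 2.03, Aars 1.09). Targets of NRF2, which also drives Slc7a11, gave 2 higher of 12 in IL10R_colonic against CXhet (Srxn1 0.92, Txnrd1 0.83), 3 higher and 1 lower of 12 in 5C5_IL10R against CX and 3 higher of 12 in ko_igg against wt. In IL10R_abx against 5C5_IL10R the arginine list gave 1 higher and 2 lower of 4 and the ATF4 list 2 higher and 2 lower of 14. The NRF2 list gave 5 higher and 5 lower of 12, where 57.8% of all genes were called. The share of all genes called was 8.69% in IL10R_colonic against CXhet and 9.91% in 5C5_IL10R against CX. It was 9.19% in ko_igg against wt and 2.43% in IL10R_P19 against 5C5_IL10R.

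Carriers and pumps outside the Slc symbols (ABC, organic anion, Mfsd and P-type families) gave 1 higher and 3 lower of 31 in IL10R_colonic against CXhet, 2 higher and 3 lower of 32 in 5C5_IL10R against CX and 1 higher and 2 lower of 33 in ko_igg against wt. Slco2b1, an organic anion carrier, fell in all 3, with changes of -3.96 (SE 0.68, limma adjusted p = 0.0101), -1.72 (SE 0.42, limma adjusted p = 0.0180) and -3.54 (SE 0.34, limma adjusted p = 0.000194). Mfsd2a, a lysophospholipid carrier, rose by 4.21 (SE 0.39, limma adjusted p = 0.000181) in ko_igg against wt, and the cholesterol pump Abcg1 by 1.19 (SE 0.21) in IL10R_colonic against CXhet. None of the 32 was called in IL10R_P19 against 5C5_IL10R (2.43% of all genes called). In IL10R_abx against 5C5_IL10R 14 rose and 10 fell (57.8% of all genes called). The share of all genes called was 8.69% in IL10R_colonic against CXhet, 9.91% in 5C5_IL10R against CX and 9.19% in ko_igg against wt.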

How the data were processed

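Polyadenylated RNA of sorted colonic lamina propria macrophages was amplified by in vitro transcription and sequenced, per the labels' protocols. The submitters' processing notes name bcl2fastq, HISAT 0.1.6, HOMER and mm9, without roles or order. How reads were assigned to genes, and with which annotation, is not given in the sources used here. The deposited values are signal: gene-level reads the authors divided by a library factor. This was read from the values, since 100% of the values of each of the 34 libraries were whole multiples of 1 step, within 0.01 read. Reads of ko_igg 16 and wt 3 were not used. There were 15399 unnamed rows (first table) and 15605 (rescue table), all without numbers. The depth per library is given in the text, and its counting error is not part of the SE.

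Solute carrier genes were taken by symbol and all matched RefSeq symbols (163 of 163). The members, lists and classes were chosen with earlier results of these data known. A class follows the family number. The planned count test was replaced by the test planned for normalized values: limma (3.58.1, R 4.3.3) with trend and robust variances on log2(value + pseudocount), the pseudocount being 1.31, 0.997 and 0.982 in the first, the rescue and the neutrophil table, genes with a mean in the lower quartile removed (means up to 53.2, 40.4 and 68.0), and Benjamini-Hochberg adjustment over all genes of a table. The log scale with a pseudocount understates changes of low genes. Alternatives were no filter, a pseudocount of 10, quantile normalization, edgeR 4.0.16 (quasi-likelihood) on recovered reads, the compared groups alone, each library left out, and a replicate block. The fits were tested on simulated data. Named genes were every called member up to 12 per direction by adjusted p, the 2 largest changes in classes of 4 or more tested members as values, members called in at least 2 tables, and up to 3 called genes per companion list; some of the class values are not repeated in the text, and others named were chosen after their values were seen. Figures used matplotlib 3.10.9 on python 3.11.15. Overlapping, antisense and near-identical genes can share reads where the counting did not use strand or unique reads, and such genes are uncertain.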

Additional observations from a re-analysis of the deposited data

Results flagged for a closer look

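Of 64 gene and group pairs examined over 17 genes, 4 were marked for a library far from the others. About 1 in 20 groups would be marked by chance. All 4 marks were library wt 1 against the other 3 libraries of the wt group in the neutrophil table. The 64 pairs also took in other groups, and the wt group gave at most 1 pair per gene, 17 at most. The 4 marks were thus a larger share of the wt pairs than of all 64. Slc15a3, the histidine and peptide carrier of lysosomes, stood at 1003 in wt 1 and at 220.0 to 274 in the others. Slc8a1 stood at 104 in wt 1 and at 55.9 to 61.2 in the others, and Slc2a6 at 26.8 and 6.42 to 9.79. Slc6a8, the creatine carrier, stood at 515 in wt 1 and at 913 to 971 in the others. The same library had the highest summed macrophage markers (2.82% of the values) and the lowest summed epithelial markers (1.30%) of its group, and their part in these values was not tested.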

How the results depend on the processing

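The number of solute carrier genes called moved by more than 1.5 times under these settings, and the cause was not tested. In IL10R_colonic against CXhet the count higher was 3 and became 6 with the replicate block, and the count lower was 1 and became 8 without the filter, 3 with a pseudocount of 10, 3 with quantile normalization, 3 with edgeR and 6 with the replicate block. The numbers of the 3 pairs do not pair the samples by the labels, and their deviations correlated at -0.06, 0.15 and 0.35, with 2 of 3 IL10R_colonic libraries closest to their own number. In 5C5_IL10R against CX the count higher was 3 and became 6 without the filter and 7 with the 2 groups alone, and the count lower was 4 and became 10 with quantile normalization, 10 with edgeR and 8 with the 2 groups alone. In IL10R_P19 against 5C5_IL10R the count higher was 1 and became 2 with quantile normalization and 2 with edgeR, and the count lower was 1 and became 2 with a pseudocount of 10, 2 with quantile normalization, 2 with edgeR and 3 with the 2 groups alone. In ko_igg against wt the counts of 5 higher and 2 lower became 8 and 6 without the filter and 0 and 0 with edgeR, where 2 libraries are missing. The interaction gave 1 higher with edgeR. Leaving out 1 library gave 1 to 3 higher and 0 to 5 lower in IL10R_colonic against CXhet, 0 to 3 and 0 to 7 in 5C5_IL10R against CX, 1 to 5 and 0 to 2 in IL10R_P19 against 5C5_IL10R, 34 to 39 and 34 to 35 in IL10R_abx against 5C5_IL10R, 8 to 18 and 23 to 29 in littermate_abx against CX, 0 to 4 and 0 to 2 in IL10R_abx against littermate_abx, 0 to 1 and 0 to 0 for the interaction, 2 to 9 and 1 to 5 in ko_igg against wt, and 0 to 0 in ko_ly6g against ko_igg. Counts moved most without IL10R_colonic 1 (5 lower), IL10R_colonic 2 (3 lower), IL10R_colonic 3 (1 higher), CXhet 1 (2 lower), CXhet 2 (0 lower), CX 1 (0 and 0), CX 3 (1 and 1), 5C5_IL10R 61 or 67 (2 lower), 5C5_IL10R 68 (7 lower), any IL10R_P19 library (0 lower), IL10R_P19_100 (5 higher), ko_igg 14 or 16 (2 and 1) and wt 1 (9 and 5). Of the single-gene values, uncalled ones changed sign in 4 cases when 1 library was left out: the interaction of Slc17a9 without IL10R_abx_497 (-0.73 to 0.13 over all libraries), that of Slc35a1 without 5C5_IL10R 27 (-0.0030) and without IL10R_abx_161 (-0.049, with 0.23 as the highest), and Slc44a4 in ko_ly6g against ko_igg without ko_ly6g 5 (-0.17 to 0.39). With 2 CX libraries, leaving 1 out lets the other stand for its group, whose spread is then taken from the other groups. Values of a few reads, such as Slc7a2 in CXhet, are limited by depth.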
